A study of Rattus norvegicus with 9 samples.

Results

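The genes described here encode the keratins of the hair shaft and its root sheaths, the keratin-associated proteins that fill the shaft, trichohyalin (Tchh) and peptidylarginine deiminase 3 (Padi3). They were taken by a rule on symbols, and the rule was chosen with earlier results of these data known. It took every gene whose symbol begins with Krtap, and Tchh and Padi3. It also took the keratins Krt25 to Krt28, Krt31 to Krt36, Krt71 to Krt76 and Krt81 to Krt86. The table of imiquimod-treated against untreated skin held 50 such gene IDs of 6025, with 48 distinct symbols, and they were 19 keratin genes, 29 keratin-associated protein gene IDs, Tchh and Padi3. The table of imiquimod with lidocaine against imiquimod held 0 of 399. Krt33a, Krt33b, Krt74 and Krt84 were not listed in either table. Each table holds a selection of genes made by the authors, so a gene that is not listed is not thereby unchanged.

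RNA was sequenced from 9 samples of back skin from Sprague Dawley rats of 250 g, all labelled wild type. In 3 samples the rats had both imiquimod, which activates Toll-like receptor 7 and gives skin inflammation resembling psoriasis, for 6 days on the back and epidural injections of 1% lidocaine, a local anaesthetic, for 4 days beginning on day 3. In 3 imiquimod samples the rats had the same 6 days of imiquimod alone. The 3 untreated samples came from rats that received nothing, and the skin of all groups was taken on day 7. The labels name no vehicle or sham group, so imiquimod cannot be told apart from vehicle or handling. Whether each sample is a separate animal is not in the labels, and p-values therefore measure only the spread among the samples, which may be technical. The 6 libraries of the imiquimod comparison had between 15947423 and 22929894 reads on the listed genes, and 1 read stood for 0.817 to 1.15 normalized counts. Errors after ± are standard errors of the log2 difference (SE) unless given as SD.

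A hair is built in the bulb of the follicle from concentric layers. The cells of the shaft (medulla, cortex and cuticle) fill with pairs of type I and type II hair keratins, and keratin-associated proteins rich in cysteine or in glycine and tyrosine then cross-link and embed these filaments. Around the shaft, the inner root sheath makes a keratin set of its own and trichohyalin, which Padi3 and other deiminases citrullinate before it is cross-linked, and the companion layer separates the inner from the outer root sheath. These genes are transcribed while a follicle is making a shaft.

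All 50 gene IDs fell in imiquimod-treated skin, by limma with Benjamini-Hochberg adjusted p-values between 0.00246 and 0.0356. Of the whole table, 87.8% of the gene IDs passed in either direction, and 40.8% of the 6025 gene IDs passed this threshold of 0.05 on the lower side. The median log2 difference, imiquimod minus untreated on the scale of log2(normalized count + 1), was -7.85 over the 50, with a range of -10.36 to -2.70, and the median over all 6025 was 1.15. Among the genes called lower in the whole table the median was -1.88. Of the 207 gene IDs that were called lower by more than 5 on this scale, 46 (22.2%) belonged to this set. The lowest untreated library was above the highest imiquimod library for all 50, and the share of the table with that pattern was 40.8%.

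Without untreated replicate 2, 29 of the 50 passed and 33.5% of the table did on the lower side. Without untreated replicate 1, 34 passed and 33.3% of the table did, and without untreated replicate 3, 40 passed and 37.7% did. Dropping an imiquimod library instead left 48 for replicate 1 and all 50 for replicate 2 or 3. The shares of the table on the lower side were then 39.2%, 35.3% and 34.4%. The median log2 difference of the 50 stayed between -8.08 and -7.68 when an untreated library was dropped. It lay between -9.68 and -5.32 when an imiquimod library was dropped. Why calls were lost in these fits was not tested. The listed genes all differ by at least 1.0 in these same libraries, a selection that makes the adjusted p-values too small, and with an adjustment as if all 23154 protein-coding genes of RefSeq had been tested, 20 of the 50 passed and 27.2% of the table did on the lower side.

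The 3 imiquimod libraries stood far apart from each other in these genes. Taken per gene against the mean of the untreated libraries on the log2 scale, the median member was at -6.92 in imiquimod replicate 1, at -12.49 in imiquimod replicate 2 and at -3.61 in imiquimod replicate 3. In normalized counts the median member kept 0.790%, 0.0114% and 7.91% of its untreated mean in imiquimod replicates 1, 2 and 3. Imiquimod replicate 2 held next to none of most of these transcripts. Krtap14l, Krt76, Krtap13-2 and Krt75 kept 13.2%, 6.93%, 5.27% and 3.12% of their untreated mean there. The median member had 564.5, 8.5 and 5283.5 reads in these libraries, and 14 of the 50 had at most 3 reads in imiquimod replicate 2. Fold changes of those members are set by the pseudocount of 1 in that library.

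The order of the libraries, replicate 3 above replicate 1 above replicate 2, held in 46 of the 50. It held in 12.7% of all listed genes and in 21.3% of the 2406 other genes that were called lower. The exceptions were Krt76, Krtap14l, Krtap31-1 and 1 of the gene IDs of Krtap12-2. The SD among the imiquimod libraries on the log2 scale was 4.35 for the median member, against 0.439 among the untreated libraries. Over all listed genes the median SD was 0.475 among imiquimod and 0.418 among untreated libraries. An SD above 2 among the imiquimod libraries occurred in 46 of the 50 and in 5.11% of all listed genes. Among the other genes called lower it occurred in 6.15%. In the untreated libraries the highest value of a member was a median of 1.83 times the lowest, with a range of 1.16 to 3.39.

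**Figure D1:**
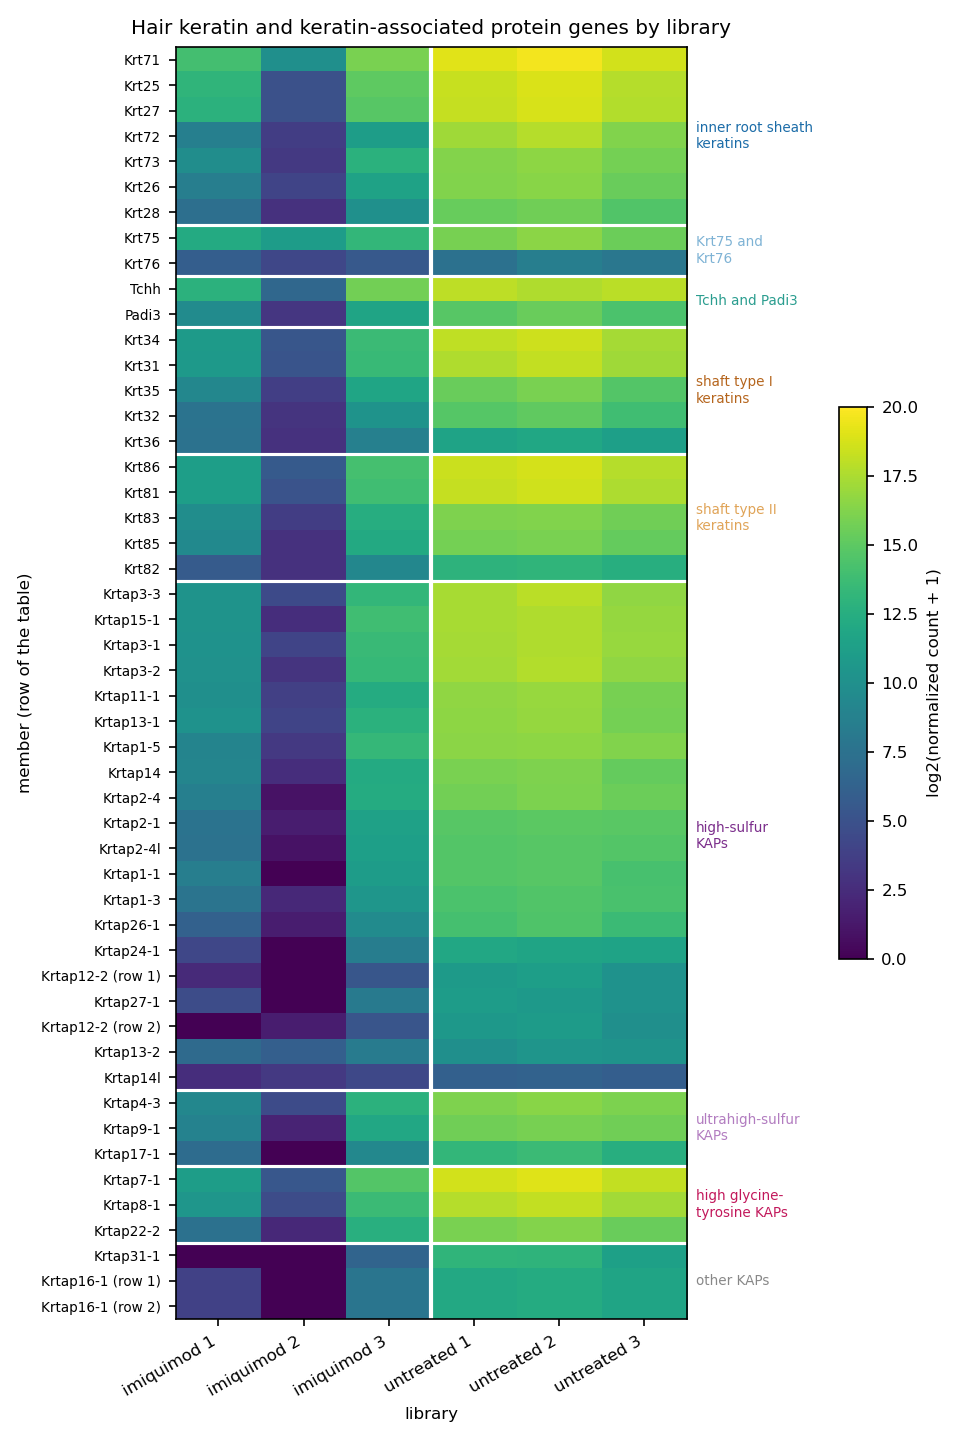
Each row is 1 of the 50 gene IDs and each column 1 library, and the colour gives log2(normalized count + 1). The imiquimod columns on the left are darker than the untreated columns in every row, and imiquimod replicate 2 is darkest in 47 of the 50.

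**Figure D2:**
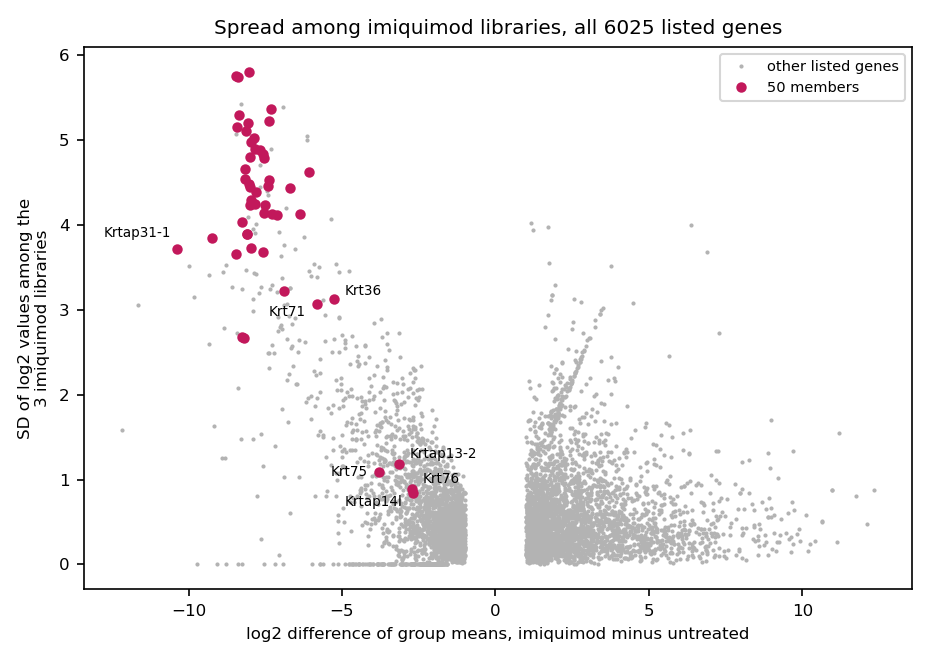
Each point is 1 of the 6025 listed gene IDs, with the log2 difference of the group means, imiquimod minus untreated, on the x axis and the SD of the log2 values among the 3 imiquimod libraries on the y axis. Of the 50 members, drawn as large points, 46 lie below -5 and above an SD of 2, and the 4 with smaller changes are Krt75, Krtap13-2, Krt76 and Krtap14l.

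Together the members took 0.427%, 0.0237% and 2.71% of the listed normalized counts in imiquimod replicates 1, 2 and 3, against 24.9%, 29.0% and 17.1% in untreated replicates 1, 2 and 3. The means were 1.05 ± 1.45% with imiquimod and 23.7 ± 6.04% in untreated skin (SD, n = 3 each). The groups did not overlap, and the exact two-sided permutation test gave p = 0.1, the smallest that 3 against 3 allows. Because the listed genes all differ by at least 1.0 in these same libraries, this separation and its p-value are not independent evidence. In bulk skin, fewer follicle cells and less of this RNA per cell cannot be told apart.

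The 7 listed inner root sheath keratin genes fell, with a median log2 difference of -7.58. Krt71, the type II keratin found in all layers of the inner root sheath, had 16437, 972 and 63412 normalized counts in imiquimod replicates 1, 2 and 3, against 567069, 820555 and 400287 in untreated replicates 1, 2 and 3. The highest imiquimod library was still far below the lowest untreated library, and the difference was -5.83 ± 1.47 SE (limma adjusted p = 0.0116). Krt25, a type I keratin of the same cells, had 8906, 29.3 and 33268 with imiquimod, against 331570, 485464 and 218546 in untreated skin, a difference of -7.30 ± 2.51. Krt27, another type I keratin of these layers, had 7225, 29.3 and 28444 with imiquimod, against 317401, 445984 and 208688 in untreated skin, a difference of -7.39 ± 2.45. The pair moved almost alike from library to library. Their limma adjusted p-values were 0.0324 and 0.0285, and both calls were lost when any 1 of the 3 untreated libraries was left out (highest adjusted p 0.0853 and 0.0772).

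The 250 bases before the start of Krt71, Krt25, Krt27 and Krtap7-1 are given here from RefSeq on assembly GRCr8. Of the members with a promoter there, these had the highest mean normalized counts. The shaft keratin gene Krt86 had a higher mean than Krt27 but has no promoter there. Capitals mark matches to the 3 motifs searched on both strands, the TATA box (TATAAA), the words CTTTGAA and CTTTGAT of the TCF/LEF factors, and 8 words of HOXC13, a homeodomain factor known in humans to bind promoters of hair keratin genes. The HOXC13 words were TTTATNAA, TTTATNAG, TTTATNGA, TTTATNGG, TTAATNAA, TTAATNAG, TTAATNGA and TTAATNGG. All 4 stretches are on the minus strand and are written 5′ to 3′.
Krt71, chr7:134761034-134761283: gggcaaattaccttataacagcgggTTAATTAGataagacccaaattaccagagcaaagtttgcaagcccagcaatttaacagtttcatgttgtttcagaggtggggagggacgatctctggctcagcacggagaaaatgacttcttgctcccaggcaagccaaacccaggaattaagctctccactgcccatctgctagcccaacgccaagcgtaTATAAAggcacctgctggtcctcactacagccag
Krt25, chr10:84771198-84771447: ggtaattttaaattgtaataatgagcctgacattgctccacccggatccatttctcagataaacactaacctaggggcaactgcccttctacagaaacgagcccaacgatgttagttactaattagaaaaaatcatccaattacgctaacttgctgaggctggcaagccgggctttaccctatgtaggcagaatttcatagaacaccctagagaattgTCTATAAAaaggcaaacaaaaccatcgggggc
Krt27, chr10:84800132-84800381: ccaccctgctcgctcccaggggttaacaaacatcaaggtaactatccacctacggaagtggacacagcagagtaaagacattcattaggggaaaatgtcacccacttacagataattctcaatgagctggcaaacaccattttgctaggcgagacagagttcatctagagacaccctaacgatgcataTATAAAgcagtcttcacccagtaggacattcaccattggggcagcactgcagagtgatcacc
Krtap7-1, chr11:42227231-42227480: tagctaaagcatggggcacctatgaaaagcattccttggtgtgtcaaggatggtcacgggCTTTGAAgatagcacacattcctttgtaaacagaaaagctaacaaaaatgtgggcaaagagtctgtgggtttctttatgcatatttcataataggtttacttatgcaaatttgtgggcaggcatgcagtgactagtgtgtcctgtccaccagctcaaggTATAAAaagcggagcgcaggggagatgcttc
The TATA box began 34 bases before the start in Krt71, 30 in Krt25, 62 in Krt27 and 31 in Krtap7-1. Krt71 also held a HOXC13 word 225 bases before the start, and Krtap7-1 a TCF/LEF word at 190 bases. The HOXC13 word of Krt25, on the other strand, began at 32 bases and shares letters with its TATA box.

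Among the members with a promoter in RefSeq, 41 of 48 symbols, a TATA box stood within 250 bases before to 50 bases after the start in 31 (75.6%), and in 14.2% of all 33469 promoters. A TATA box on the gene's strand that began 26 to 36 bases before the start, a window chosen after the sequences were seen, occurred in 13 (31.7%) and in 1.03% of all promoters. HOXC13 words occurred in 26 (63.4%) and in 19.7% of all. Some of these words share letters with a TATA box, and words with no such overlap occurred in 20 (48.8%) and in 16.9% of all. TCF/LEF words occurred in 12 (29.3%) and in 8.73% of all. These are matches of letters and were not tested as binding sites.

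Krt72 and Krt73, type II keratins of the inner root sheath cuticle, both fell. Krt72 had 406, 11.1 and 2271 normalized counts with imiquimod, against 148464, 218154 and 77911 in untreated skin, which was -9.25 ± 1.83 (limma adjusted p = 0.00538). Krt73 had 890.1, 9.11 and 7129 with imiquimod, against 78180, 100413 and 57109 in untreated skin, which was -7.58 ± 2.26 (limma adjusted p = 0.0203). Whether these changes differ from each other was not tested. Krt26 and Krt28, type I keratins of the sheath named after their values were seen, had differences of -7.97 and -8.46. Summed, the inner root sheath keratins stood at 2.15%, 0.0670% and 8.66% of their untreated mean in imiquimod replicates 1, 2 and 3.

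Krt75 and Krt76 changed the least among the keratins that are members. Krt75, the type II keratin of the companion layer, had 4897, 2134 and 9689 normalized counts with imiquimod, against 62702, 96150 and 46308 in untreated skin. The imiquimod libraries were within 4.54-fold of each other, and the difference was -3.81 ± 0.61 (limma adjusted p = 0.00267). In imiquimod replicate 2, where Krt71 was at 0.163% and Krt25 at 0.0085% of the untreated mean, Krt75 was at 3.12%. Krt76, known chiefly from the palate, was low in every library, with 61.0, 18.2 and 46.6 with imiquimod against 176, 369.8 and 242 in untreated skin, a difference of -2.71 ± 0.53 (limma adjusted p = 0.00527). Both calls held when any 1 library was left out.

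Tchh, the trichohyalin gene, and Padi3, the gene of an enzyme that citrullinates it, both fell, and Tchh had the highest adjusted p of the 50. Tchh had 7260, 103 and 56166 normalized counts with imiquimod, against 270632, 198438 and 248940 in untreated skin. Imiquimod replicate 3 kept 23.5% of the untreated mean and replicate 2 kept 0.0431%, and the difference was -6.09 ± 2.16 (limma adjusted p = 0.0356). The call was lost when imiquimod replicate 1 or any 1 of the 3 untreated libraries was left out, with a highest adjusted p of 0.0846. Padi3 had 787, 8.10 and 3336 with imiquimod, against 28867, 43662 and 21138 in untreated skin, which was -6.70 ± 2.09 (limma adjusted p = 0.0234). This call was lost when any 1 of the 3 untreated libraries was left out (highest adjusted p 0.0671). Padi3 had its highest untreated value in replicate 2, where Tchh had its lowest.

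All 10 listed shaft keratin genes fell, with medians of -7.58 over the 5 type I and -7.55 over the 5 type II genes. Krt34 and Krt31 are type I keratins of the cortex. Krt34 had 1916, 39.5 and 12879 normalized counts with imiquimod, against 270972, 372433 and 164489 in untreated skin, a difference of -8.0 ± 2.00. Krt31 had 1794, 35.4 and 11652 with imiquimod, against 204591, 296021 and 147083 in untreated skin, a difference of -7.83 ± 2.00. These cortex keratins had limma adjusted p-values of 0.0114 and 0.0122, and both calls held when any 1 library was left out.

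Their type II partners in the cortex gave similar values. Krt86 had 2368, 49.6 and 17794 normalized counts with imiquimod, against 339315, 434911 and 224287 in untreated skin, a difference of -7.96 ± 2.02. Krt81 had 2358, 33.4 and 14704 with imiquimod, against 304527, 382726 and 185760 in untreated skin, a difference of -8.04 ± 2.11. Krt83, a further cortex keratin, had 902, 11.1 and 5516 with imiquimod, against 71244, 77815 and 51710 in untreated skin, a difference of -7.39 ± 2.12. The reads of such close relatives may be shared between them, since the sources used here do not give the handling of reads that match several genes. The limma adjusted p-values were 0.0119, 0.0132 and 0.0178, and the last call was lost without untreated replicate 2.

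Keratins that appear early, in the hair matrix and the lower cuticle, fell likewise. Krt85, the type II keratin of the matrix, had 705.5, 6.07 and 4487 normalized counts with imiquimod, against 57617, 65698 and 38643 in untreated skin, a difference of -7.55 ± 2.24 (limma adjusted p = 0.0200). Its type I counterpart Krt35 had 625, 12.1 and 3431 with imiquimod, against 44608, 64405 and 25929 in untreated skin, a difference of -7.11 ± 1.95 (limma adjusted p = 0.0152). The Krt85 call was lost without untreated replicate 1 or 2. The cuticle keratin Krt32 (type I) differed by -7.58 ± 1.75 and the cuticle keratin Krt82 (type II) by -6.88 ± 1.52. Krt36, a type I shaft keratin, had the smallest difference of the shaft keratins, with 185, 6.07 and 423 with imiquimod against 3118, 3935 and 2534 in untreated skin, which was -5.26 ± 1.47 (limma adjusted p = 0.0165, lost without untreated replicate 2). Summed, the shaft keratins stood at 0.847%, 0.0157% and 5.55% of their untreated mean in imiquimod replicates 1, 2 and 3.

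The 29 gene IDs of keratin-associated proteins fell, with a median log2 difference of -8.02. The 3 genes of the high glycine-tyrosine families, small proteins made in the cortex, were close to each other. Krtap7-1 had 2268, 42.5 and 26208 normalized counts with imiquimod, against 406390, 529427 and 290195 in untreated skin, a difference of -8.17 ± 2.18 (limma adjusted p = 0.0140). Krtap8-1 had 1428, 24.3 and 12448 with imiquimod, against 225776, 299757 and 153490 in untreated skin, a difference of -8.15 ± 2.13. Krtap22-2 had 174, 4.05 and 6376 with imiquimod, against 64119, 78544 and 43793 in untreated skin, a difference of -8.41 ± 2.41 whose call was lost without untreated replicate 2. Imiquimod replicate 3 kept between 5.50% and 10.3% of the untreated mean of each.

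The 20 gene IDs of the high-sulfur families, cysteine-rich proteins of cortex and cuticle, had a median of -7.98. Krtap3-3, Krtap3-1 and Krtap3-2, members of a cortex family, differed by -8.0 ± 2.09, -7.99 ± 2.24 and -8.36 ± 2.48, and Krtap11-1 by -7.79 ± 2.07. The Krtap3-2 call was lost without untreated replicate 1 or 2. Krtap15-1 had 1223, 5.06 and 14696 normalized counts with imiquimod, against 175352, 199726 and 118700 in untreated skin, so that its highest imiquimod library was 2904-fold above its lowest. Its difference was -8.39 ± 2.68 (limma adjusted p = 0.0254), and the call was lost when any 1 of the 3 untreated libraries was left out. Without untreated replicate 2, 10 of the 20 high-sulfur gene IDs lost their call.

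A pair of high-sulfur genes, named here after their values were seen, changed less than the other keratin-associated proteins. Krtap13-2 had 118, 63.8 and 326 normalized counts with imiquimod, against 1019, 1376 and 1237 in untreated skin, a difference of -3.14 ± 0.60 (limma adjusted p = 0.00487). Krtap14l had 5.23, 9.11 and 18.8 with imiquimod, against 68.0, 76.4 and 62.8 in untreated skin, a difference of -2.70 ± 0.46 (limma adjusted p = 0.00325). Krtap14l had the fewest counts of all members in untreated skin. The neighbouring gene Krtap13-1 had a difference of -7.40 and Krtap14 of -7.84.

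The 3 genes of the ultrahigh-sulfur families, whose proteins are the richest in cysteine, fell, with a median of -7.67. Krtap4-3 had 625, 23.3 and 7353 normalized counts with imiquimod, against 70993, 89405 and 66547 in untreated skin, a difference of -7.28 ± 1.93. Krtap9-1 had 456, 3.04 and 4151 with imiquimod, against 52257, 60786 and 52751 in untreated skin, a difference of -8.13 ± 2.38. Krtap17-1 had 137, 0 and 651.5 with imiquimod, against 9949, 12653 and 5983 in untreated skin, a difference of -7.67 ± 2.29. All 3 were lowest in imiquimod replicate 2, with limma adjusted p-values of 0.0138, 0.0191 and 0.0203. The Krtap9-1 call was lost when any 1 of the 3 untreated libraries was left out, and the Krtap17-1 call without untreated replicate 1 or 2.

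Krtap31-1 had the largest difference of all members. It had 0, 0 and 85.8 normalized counts with imiquimod, against 8926, 8431 and 2633 in untreated skin, which was -10.36 ± 1.80 (limma adjusted p = 0.00348). Because 2 imiquimod libraries held no read, this size depends on the pseudocount. Krtap16-1 was listed under a pair of gene IDs (ENSRNOG00000053360 and ENSRNOG00000061192) whose values were equal within 1e-06 on the log2 scale in 4 of 6 libraries and differed by at most 0.0012 elsewhere, so they are not independent. Under ENSRNOG00000053360 the values were 13.9, 0 and 219 with imiquimod, against 4220, 4980 and 3265 in untreated skin, a difference of -8.11 ± 1.82. Krtap12-2 was also listed under a pair of IDs, with differences of -8.18 and -8.25, and the reads of such copies are uncertain.

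**Figure D3:**
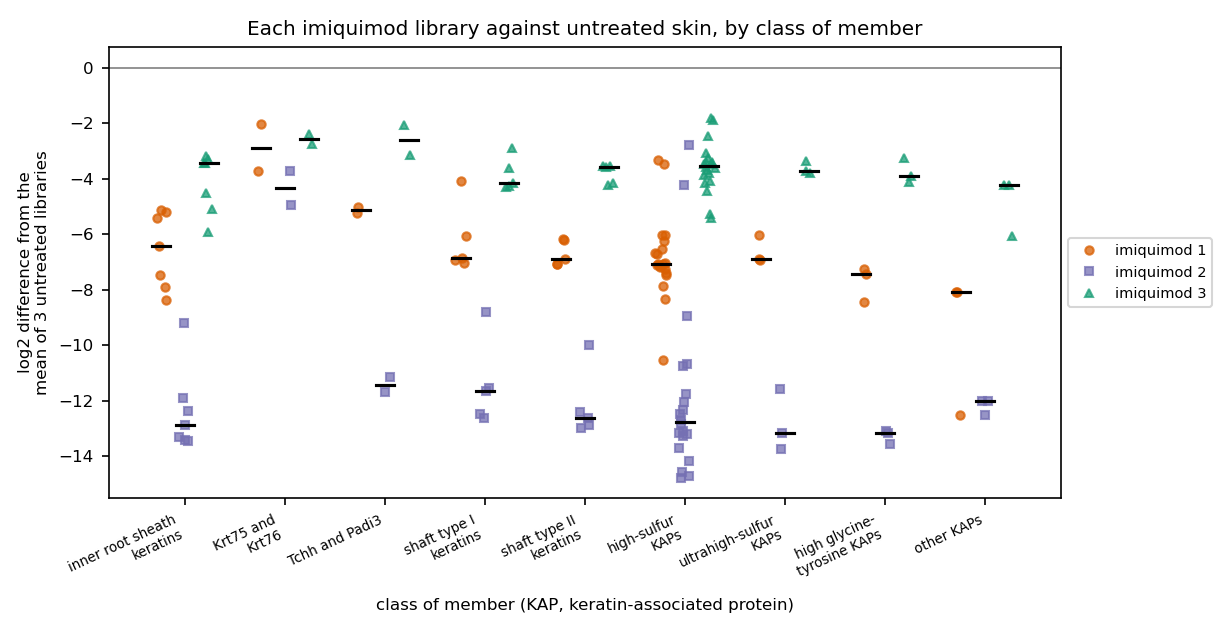
The y axis gives, for each member and each imiquimod library, the log2 difference from the mean of the 3 untreated libraries, by class of member, and the black bars are medians. In each class the median of imiquimod replicate 2 lies lowest, at -12.89 for the inner root sheath keratins and -4.32 for Krt75 and Krt76, and that of imiquimod replicate 3 lies highest.

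The members' counts were also divided by class within each library, a comparison in which 3 against 3 samples cannot give a p below 0.1. Shaft keratins made up 15.2%, 5.41% and 16.97% of the members' counts in imiquimod replicates 1, 2 and 3, against 25.1%, 25.3% and 23.4% in untreated replicates 1, 2 and 3. Keratin-associated proteins made up 19.98%, 7.21% and 34.6% with imiquimod, against 38.6%, 37.6% and 39.9% in untreated skin. In both classes the groups did not overlap, with the imiquimod libraries below (exact two-sided permutation p = 0.1 each). Krt71 alone made up 22.5%, 25.4% and 14.8% with imiquimod, against 10.7%, 11.9% and 10.9% in untreated skin. Krt75 made up 6.70%, 55.9% and 2.26% with imiquimod, against 1.18%, 1.40% and 1.26% in untreated skin. For these genes the imiquimod libraries were all above (exact two-sided permutation p = 0.1 each). The inner root sheath keratins as a class made up 47.0%, 28.1% and 32.3% with imiquimod, against 29.4%, 32.2% and 28.05% in untreated skin, and these ranges overlap (p = 0.4 by the same exact test). Shares within a library add up to 100%, so a higher share of a class is not a rise of its level.

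**Figure D4:**
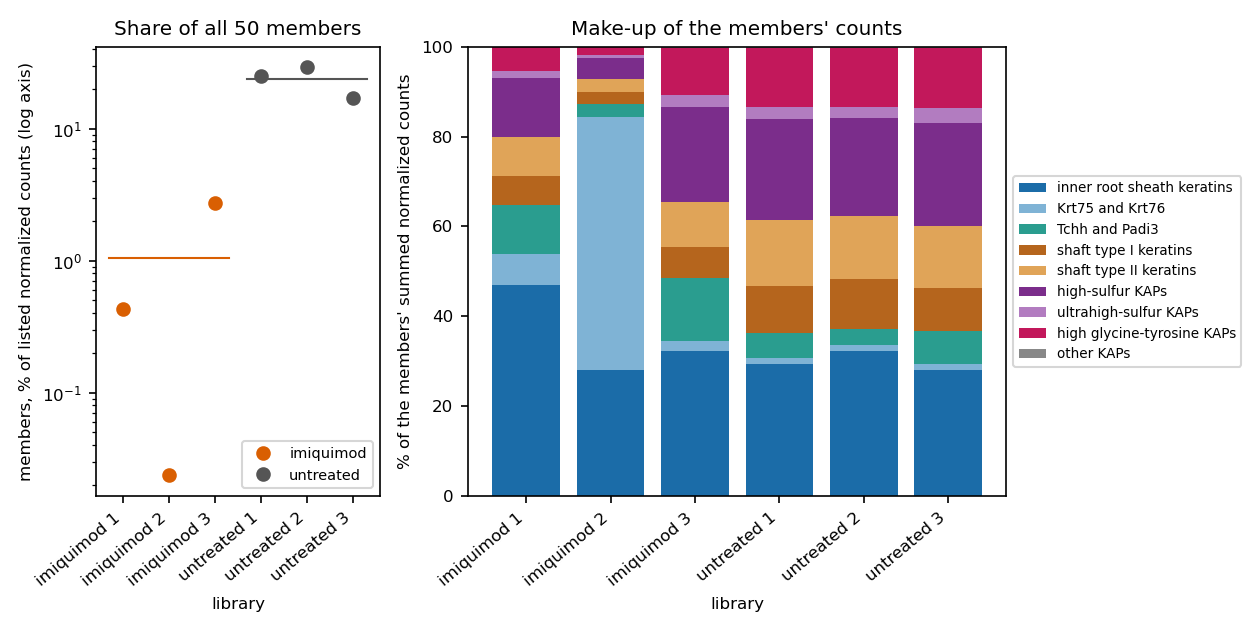
The left panel gives the members' summed share of the listed normalized counts per library on a log axis, with lines at the group means of 1.05% with imiquimod and 23.7% in untreated skin. The right panel divides the members' counts of each library by class, and Krt75 and Krt76 take most of the little that imiquimod replicate 2 has left.

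Many of these genes are neighbours. By the order of genes in the RefSeq table, with gaps of at most 1000000 bases, the symbols with a position fell into 6 runs, of which 3 held several members. The run from Krt25 to Krt36, which holds type I keratins with keratin-associated protein genes between them, had 22 members and a median log2 difference of -7.97. Inside it lay 6 listed genes that are not members, of which 4 fell and 2 rose, against 40.8% and 47% of the whole table. Those that fell were Krt40, a hair cuticle keratin outside the symbol rule (-7.84), Krt23 (-2.69), LOC680428 (-9.98) and LOC100910814 (-7.68), which is described as a keratin-associated protein. Those that rose were Krt12, a keratin of the cornea, by 2.33, and Krt20, a keratin of the gut lining, with 25.3, 10.1 and 13.9 normalized counts with imiquimod and 0 in all 3 untreated libraries. The run from Krt81 to Krt76 had 10 members and a median of -7.47, and 3 listed type II keratin genes that are not members lay inside it. Of these, Krt2 and Krt77, keratins of the epidermis, fell, with log2 differences of -2.81 and -11.64, the Krt77 difference being beyond that of any member, and Krt1, the keratin of the upper epidermis, had a difference of -1.44 that did not pass the test. The run from Krtap24-1 to Krtap11-1 had 11 members and a median of -7.79, and the 1 listed gene inside it that is not a member, LOC100912272, also described as a keratin-associated protein, fell with a difference of -3.88. The genes inside the runs were named after their values were seen.

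Genes of the same families outside the symbol rule fell as well. Over all listed gene IDs, 40.8% passed on the lower side and 47% on the higher side. The table held 14 further gene IDs described as keratin-associated proteins but with provisional symbols. All 14 fell, with a median of -7.74 and a range of -9.33 to -3.88, and the order of imiquimod libraries given above held in 13. Of the 18 other keratins and epidermal markers listed, 13 fell, 4 rose and Krt1 did not pass the test, with a median of -2.61. The genes that rose were Krt12, Krt14, Krt16 and Krt20. Krt16, a keratin of activated epidermis, had 155654, 133962 and 94142 normalized counts with imiquimod, against 3249, 6653 and 2481 in untreated skin, and was higher in every imiquimod library, by 5.05 ± 0.45 (limma adjusted p = 0.000325). Krt14, the keratin of basal keratinocytes, had 640964, 437918 and 319029 with imiquimod, against 181460, 208251 and 182379 in untreated skin, a difference of 1.23 ± 0.34 (limma adjusted p = 0.0150). For both, every imiquimod library, replicate 2 included, was above every untreated library.

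The transcription factors that act in the hair bulb were lower too. Of 15 such genes, 13 were listed, and all 13 fell, against 40.8% of the whole table. Their median log2 difference was -2.91. Dlx3, a homeodomain factor of the matrix and shaft, had 1029, 688 and 2447 normalized counts with imiquimod, against 22255, 31033 and 14695 in untreated skin, a difference of -4.17 ± 0.55 (limma adjusted p = 0.00139). Hr, a corepressor needed for the follicle to regrow, differed by -1.92 ± 0.49 and Ovol1, a zinc finger factor downstream of WNT signals, by -1.63 ± 0.38. Hoxc13, which was named after its value was seen because its words were searched above, had 25.3, 11.1 and 175 with imiquimod, against 692, 445 and 694 in untreated skin, a difference of -3.97 ± 0.97 (limma adjusted p = 0.0105). Lef1, named for the same reason, had 541, 228 and 409.5 with imiquimod, against 3520, 4917 and 2340 in untreated skin, a difference of -3.21 ± 0.45 (limma adjusted p = 0.00169). The order of imiquimod libraries seen in the keratins held for Hoxc13 and, counting it, for 6 of the 13 factors.

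Of 19 structural and junction proteins of shaft and root sheath, 13 were listed, of which 11 fell and 2 rose, with a median of -3.64. S100a3, a calcium-binding protein of the hair cuticle, had 753, 17.2 and 3807 normalized counts with imiquimod, against 97661, 131440 and 56366 in untreated skin, a difference of -7.91 ± 1.87 (limma adjusted p = 0.00955). Psors1c2 differed by -3.95 ± 0.45. Lgals7, a galectin of stratified epithelia, differed by -1.53 ± 0.55, but its groups overlapped and the call was lost in 4 of the leave-one-out fits. The genes that rose were Dsg3 and Dsg1, desmosomal cadherins that the epidermis also makes. Of 14 cross-linking, citrullinating and processing enzymes, 8 were listed, of which 5 fell and 3 rose, with a median of -2.02. Padi1, a deiminase of epidermis and follicle, differed by -5.91 ± 1.66 (limma adjusted p = 0.0167), St14, the membrane protease matriptase, by -1.70 ± 0.31, and Tgm3, a transglutaminase that cross-links hair and envelope proteins, by 1.64 ± 0.29.

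Signals of the bulb and markers of other follicle compartments were mostly lower as well. The shares of the whole table were 40.8% on the lower side and 47% on the higher side. Of 33 WNT, BMP, SHH and FGF genes, 22 were listed, of which 20 fell, Fgf7 rose and Bmpr1a did not pass, with a median of -2.48. Bmp4, a signal of the papilla and matrix, differed by -2.72 ± 0.35, Nkd2, a WNT feedback inhibitor, by -3.36 ± 0.56, and Notch1, a receptor, by -1.31 ± 0.33. Of 14 bulge and stem cell markers, 10 were listed, of which 8 fell and 2 did not pass, with a median of -2.12. Krt15, a keratin of bulge and basal cells, had 35136, 1129 and 11360 normalized counts with imiquimod, against 83264, 93580 and 76596 in untreated skin, a difference of -3.46 ± 1.20 (limma adjusted p = 0.0329, lost when imiquimod replicate 3 or any 1 of the untreated libraries was left out). Sox9, a transcription factor of bulge and outer root sheath, differed by -2.45 ± 0.74 (limma adjusted p = 0.0206, lost without untreated replicate 1 or 2), and Postn, a matrix protein, by -1.82 ± 0.33. Of 15 dermal papilla markers, 6 were listed, of which 5 fell and Vcan, a matrix proteoglycan, rose, with a median of -1.89. Vcan, a matrix proteoglycan, differed by 2.76 ± 0.48, Crabp1, a retinoic acid binding protein of the papilla, by -2.55 ± 0.61, and Rspo1, a WNT enhancer, by -1.65 ± 0.37.

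Markers of other cell types moved with the groups as well, and their part in the hair results was not tested. For the counts that follow, 47% of the whole table passed on the higher side and 40.8% on the lower side. Of 12 leukocyte markers, 11 were listed and all 11 rose, with a median of 4.16, and their summed counts were 193069 to 319626 with imiquimod and 30560 to 48816 in untreated skin. Ptprc, the pan-leukocyte phosphatase CD45, had 22077, 27397 and 27449 with imiquimod, against 91.0, 301 and 948 in untreated skin, and Cd74 and Cd68, genes of antigen presentation and macrophages, differed by 2.22 ± 0.40 and 4.37 ± 0.36. The order of the imiquimod libraries seen in the hair genes held in 0 of these 11 and in 12.7% of all listed genes. Whether the leukocyte genes differ from the whole table in this was not tested. Of 18 sebaceous gland markers, 12 were listed, of which 10 fell and 2 rose, with a median of -3.19 and sums of 45938 to 59259 with imiquimod and 108274 to 159684 in untreated skin. The lipid genes Scd, Plin2 and Fabp4 of that list differed by -4.06 ± 0.39, 2.496 ± 0.28 and -1.13 ± 0.31. Of 15 follicle melanocyte markers, 9 were listed, of which 7 fell and 2 did not pass, with a median of -2.61. Their sums were 2155 to 3454 with imiquimod and 6923 to 10792 in untreated skin. Slc45a2, which did not pass, was at 0 in all imiquimod libraries and at 38.0, 14.5 and 0 normalized counts in untreated skin. The melanocyte genes Dct, Mitf and Kit differed by -3.93 ± 0.99, -1.58 ± 0.54 and -1.05 ± 0.24, and the Mitf call was lost when any 1 untreated library was left out. With genes at 0 throughout a group (Slc45a2, Krt4 and Krt20) set to 3 reads per library, the medians of the melanocyte and epidermal lists stayed at -2.61 each. Of 10 fibroblast markers, 5 were listed, of which 4 fell and 1 did not pass, with sums of 368209 to 382244 with imiquimod and 1681920 to 3794210 in untreated skin. The matrix genes Col1a1, Col3a1 and Dpt differed by -2.99 ± 0.36, -2.40 ± 0.39 and -1.56 ± 0.29. Of 8 adipocyte markers, 5 were listed, of which 3 fell and 2 did not pass, with sums of 8854 to 23536 with imiquimod and 30108 to 54667 in untreated skin. Adipoq differed by -2.19 ± 0.48, Cidec by -1.67 ± 0.40, and Cfd, which did not pass, by -1.005 ± 0.45. Of 15 skeletal muscle markers, 2 were listed, Casq1 with -1.05 ± 0.36, a call lost without imiquimod replicate 1 or 3 or untreated replicate 1 or 3, and Myh7 with 2.81 ± 1.27, which did not pass. Of 23 proliferation markers the 2 listed, Rrm2 and Tyms, rose by 2.44 ± 0.35 and 1.79 ± 0.27.

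**Figure D5:**
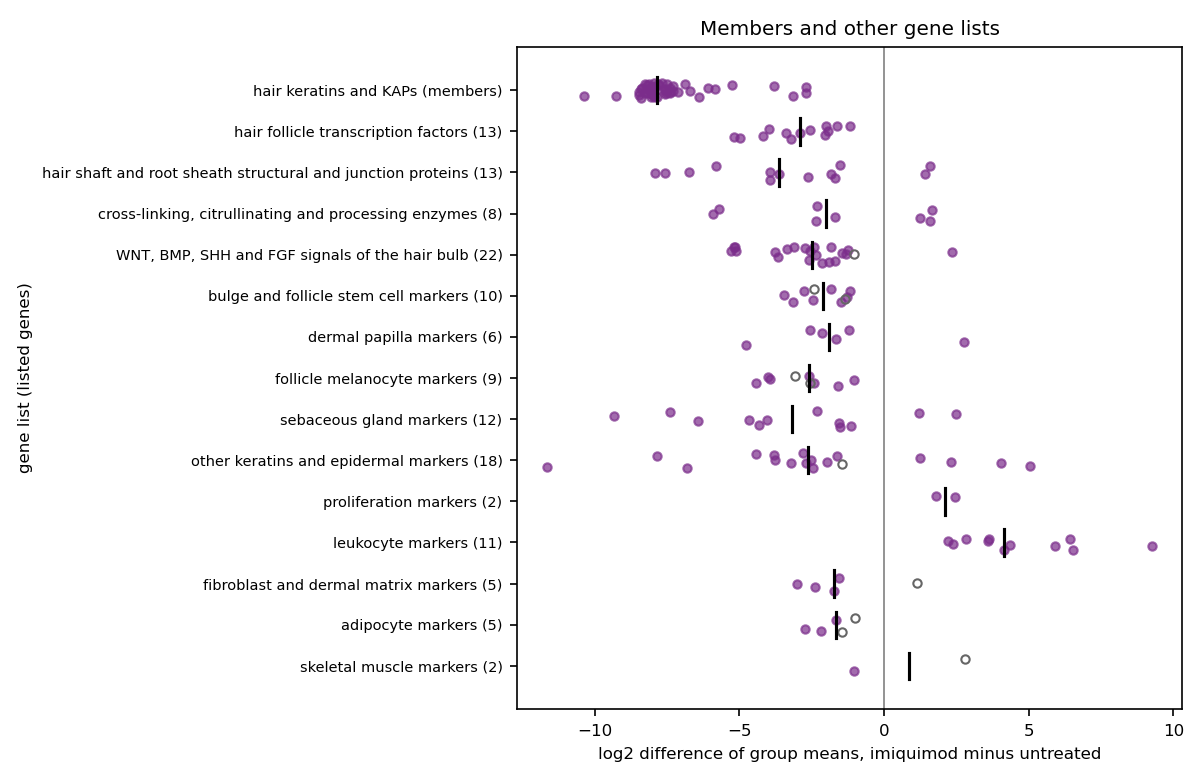
Each point is a listed gene, with its log2 difference, imiquimod minus untreated, on the x axis and its list on the y axis. Filled points passed the limma test, open points did not, and black bars are medians, at -7.85 for the 50 members and 4.16 for the leukocyte markers.

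For the question of what epidural lidocaine changed in imiquimod-treated skin, no member could be compared. None of the 50 is among the 399 listed genes of that comparison, and their values in the lidocaine libraries were not analysed here. Of the 247 genes in the lists used above, 8 were in that table, and Ivl, the cornified envelope gene involucrin, passed the limma test there, which 32.1% of the table did in either direction. Ivl had 84.5, 119 and 122 normalized counts with lidocaine, against 687, 409.9 and 320.4 with imiquimod alone, a difference of -2.06 ± 0.49 (limma adjusted p = 0.0191). The other 7 differed by -1.07 to -1.81 with limma adjusted p-values between 0.0584 and 0.0913. The comparison shares its imiquimod libraries with the one above.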

How the data were processed

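RNA was measured in 9 samples of rat back skin, grouped by their titles. Per the submitters' processing notes, bcl2fastq, STAR (version 2.5.3a) and DESeq2 were used. The sources used here do not give a counting tool, a genome build or annotation, a strand setting or the rule for listing genes. The authors deposited 2 tables with 1 value per gene and library that behaves as log2(normalized count + 1). The imiquimod values agree between the tables (largest difference 4.97e-09), and no listed gene differs by less than 1.0 in group means. After removal of the log, 100% of the values up to 2000 reads were, within 0.01, whole multiples of the value of 1 read in that library, so that reads could be counted. The total depth is unknown.

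The deposited log2 values were compared over all 6025 (and 399) gene IDs with limma 3.58.1 in R 4.3.3, which shares 1 estimate of the spread between both groups of a gene, with Benjamini-Hochberg adjustment and a threshold of 0.05. On the log2(normalized count + 1) scale the change of low genes is understated. The fit was tested on simulated data drawn with the same spread in both groups. That test therefore does not cover the unequal spread of the members. Shares were compared by exact permutation (scipy 1.17.1), and tables and figures made with python 3.11.15, numpy 2.4.6, pandas 2.3.3 and matplotlib 3.10.9. RefSeq (GRCr8) gave promoters, gene order and 46 of 48 symbols.

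The members, the 14 gene lists and the tests were chosen with earlier results of these data known. Named are, per class of member, the up to 5 with the highest mean, and per list the up to 3 with the highest mean. Further genes are named only after their values had been seen. Alternatives were a stricter threshold, Bonferroni adjustment, a minimum difference, minimum means of 10 and 100, a pseudocount of 0.1, rescaling to the genes that are not members, a replicate block, leaving out each library and, added after the data were seen, an adjustment over all 23154 protein-coding genes and 1 gene ID per symbol.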

Additional observations from a re-analysis of the deposited data

How the results depend on the processing

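Every member that could be fitted was lower with imiquimod under each alternative run, and the number past the threshold was what moved. It was 50 at an adjusted p of 0.05 (40.8% of all listed genes on the lower side) and 15 at 0.01 (23.1%). With limma and Bonferroni adjustment it was 0 (0.515% of all listed genes on the lower side). With adjustment over all protein-coding genes, an alternative chosen after seeing the data, it was 20 (27.2% of all listed genes on the lower side). Leaving out 1 library at a time gave 29 to 50, with 29 without untreated replicate 2 (33.5%), while 33.3% to 39.2% of all listed genes passed on the lower side. With a pseudocount of 0.1, 48 passed (38.4% of all on the lower side), and Krtap27-1 and Krtap1-1 did not. The other follicle genes were the 6 lists from the transcription factors to the dermal papilla markers. Of their listed genes, 62 fell at 0.05 (40.8% of all listed genes on the lower side). The number was 40 at 0.01 (23.1%) and 0 with Bonferroni adjustment (0.515%). The median log2 difference of the members ranged from -9.68 without imiquimod replicate 3 to -5.32 without imiquimod replicate 2, and was -7.98 with a pseudocount of 0.1 and -7.79 after rescaling to the other genes, which moved the median of all genes by 0.058. Same-numbered imiquimod and untreated samples did not deviate together (correlations of -0.0237, -0.232 and -0.0138). Differently numbered samples had correlations of -0.229 to 0.255. With 3 samples per group these values cannot decide whether the samples were paired. With a replicate block 50 members passed (35.4% of all on the lower side). For lidocaine no member was listed, so none of its alternatives gave a value. Reads limit the members most in imiquimod replicate 2, where 47 of the 50 had under 100 reads.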

Other observations

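Several genes outside the symbol rule, picked after their values were seen, also had imiquimod libraries far apart. Kb23, which the table describes as type II keratin 23, had 2614, 52.6 and 13429 normalized counts in imiquimod replicates 1, 2 and 3, against 350284, 552833 and 191423 in untreated replicates 1, 2 and 3, a log2 difference of -8.08 ± 1.95 SE (limma adjusted p = 0.0102). Tchhl1, trichohyalin-like 1, had 1297, 55.7 and 5596 with imiquimod, against 40778, 54198 and 32811 in untreated skin, a difference of -5.81 ± 1.60 (limma adjusted p = 0.0154). Crym, a thyroid hormone binding protein, had 180.3, 59.7 and 1314 with imiquimod, against 27691, 33977 and 18551 in untreated skin, a difference of -6.73 ± 1.09 (limma adjusted p = 0.00276). Padi4, a further deiminase, had 169, 20.2 and 453 with imiquimod, against 6296, 9075 and 4210 in untreated skin, a difference of -5.72 ± 1.10 (limma adjusted p = 0.00489). In each of these genes imiquimod replicate 3 was highest and replicate 2 lowest among the imiquimod libraries, and the groups did not overlap.

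In a pair of other follicle genes, also picked after their values were seen, the imiquimod libraries lay closer together than in those 4 genes. Selenbp1 had 408, 381.5 and 535 normalized counts with imiquimod, against 5984, 7268 and 3755 in untreated skin, a difference of -3.64 ± 0.35 (limma adjusted p = 0.000427). Fgf22, a growth factor gene, had 34.8, 69.8 and 74.4 with imiquimod, against 806, 879 and 659.8 in untreated skin, a difference of -3.75 ± 0.38 (limma adjusted p = 0.000505). No test compared the spread of these genes with that of the hair keratins.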
